A study of Rattus norvegicus with 2 samples.

Results

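Genes of the Sox transcription factor family were followed in cultured rat cortical neurons after a small interfering RNA against Ythdf3. The members were 10 genes chosen by symbol, Sox1, Sox2, Sox3, Sox4, Sox5, Sox6, Sox8, Sox9, Sox11 and Sox12, out of 21224 gene rows in the deposited table. Each symbol stood on 1 row. The groups were siYthdf3, cells that received the small interfering RNA against Ythdf3, and siNC, cells that received a negative control small interfering RNA. Both came from the cortex of rat embryos at embryonic day 18 and were labelled as neurons, and the labels name no strain, genotype, sex, dose or time after transfection. Each group had 1 library, so the spread between cultures is unknown and the values below are descriptions without a test.

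SOX proteins bind DNA through a high-mobility-group box and bend it, and they usually act together with partner factors bound nearby. The family is sorted into subgroups by sequence. SOXB1 proteins (SOX1, SOX2, SOX3) keep neural progenitors undifferentiated, SOXC proteins (SOX4, SOX11, SOX12) act in newborn neurons, SOXD proteins (SOX5, SOX6) have no activation domain of their own and act in neuron subtype choice and in glia, and SOXE proteins (SOX8, SOX9, SOX10) act in glial cells. YTHDF3, the protein product of the targeted gene, reads the methyl mark m6A on messenger RNA.

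Levels are FPKM, fragments scaled to gene length and to the assigned reads of the library. Whole reads were recovered from these values, 22586543 in siYthdf3 and 15392218 in siNC. The library labelled siYthdf3 had 6.93 FPKM of Ythdf3, against 9.38 FPKM in siNC, with a ratio of 0.739 (interval 0.675 to 0.809). Intervals are exact 95% intervals from read counts and cover counting error only, not differences between cultures. They take each recovered read as independent. The labelled cell type was compared with marker lists that were chosen with earlier results of these data known. All 9 neuronal markers were present, with a summed level of 1140 FPKM in siYthdf3 against 989 FPKM in siNC. Other cells were present too, since 8 astrocyte markers summed to 243 FPKM in siYthdf3 against 171 FPKM in siNC, of which Gfap alone gave 141 FPKM in siYthdf3 and 68.2 FPKM in siNC. The 11 radial glia markers summed to 1570 FPKM in siYthdf3 against 2210 FPKM in siNC. The 6 endothelial markers were near absent, at 0.753 FPKM in siYthdf3 against 0.991 FPKM in siNC in sum. In such a mixed culture, fewer cells of a type and less RNA per cell cannot be told apart.

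All 10 Sox members passed the minimum level, a mean of 1 FPKM in the 2 libraries, as did 13172 genes in all. Their read totals over both libraries ran between 145 for Sox3 and 17235 for Sox4. Differences are given as the FPKM ratio of siYthdf3 over siNC, and as a log2 ratio after adding 0.5 FPKM to both values, which understates the differences of low genes. Sox12 was at least 2-fold higher in siYthdf3 on the log2 scale, and it was the 1 member past that size. Over all genes the share 2-fold higher was 0.706%, and the share 2-fold lower, where 0 members stood, was 0.896%. The counting intervals of 5 members lay above 1, those of 2 lay below 1 and those of 3 included 1. Among the 11208 genes with read totals in the range of the members, 21.3% had an interval above 1 and 23.8% one below 1. In 7 of the 10 members the ratio was above 1 at any size, and 48.1% of all genes had a log2 ratio above 0. The median log2 ratio of the 10 members was 0.20, beside -0.01 for all genes.

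**Figure D1:**
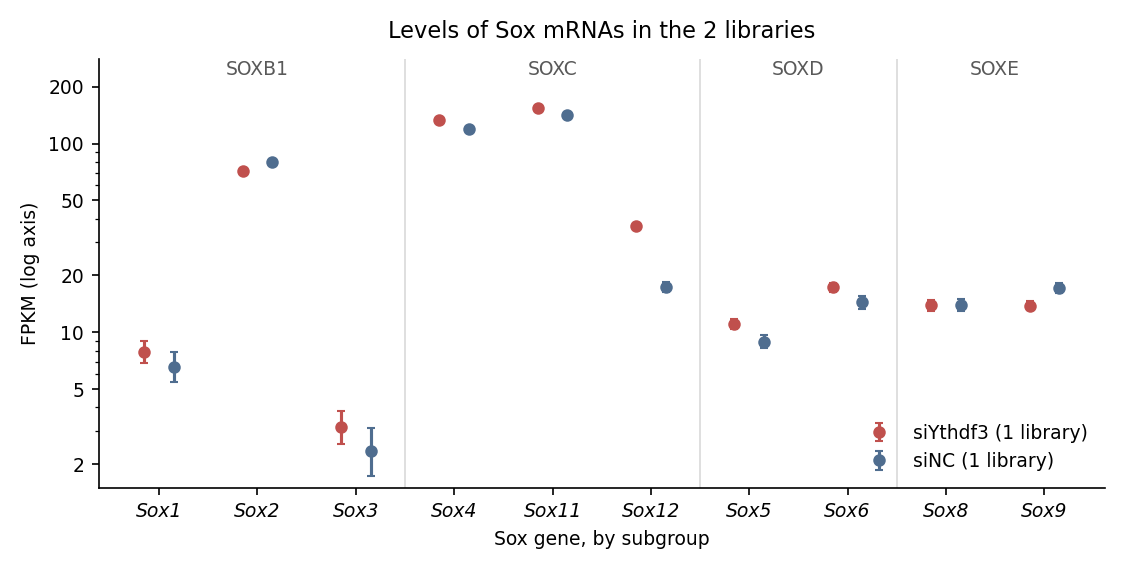
FPKM of each Sox gene (log axis) in the siYthdf3 and siNC libraries, by subgroup, with 1 library a group and bars for the exact 95% counting interval. Sox11 and Sox4 were highest in both libraries, and Sox12 stood at 36.7 FPKM in siYthdf3 against 17.4 FPKM in siNC.

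The SOXC genes, which promote the differentiation of newborn neurons, made up most of the Sox messenger RNA. Sox11 (ENSRNOG00000030034, chromosome 6, 44008340 to 44010354, minus strand) had 155 FPKM in siYthdf3 (interval 151 to 158), against 142 FPKM in siNC (interval 137 to 146). Sox4 (ENSRNOG00000065643, chromosome 17, 35667537 to 35673665, plus strand) had 133 FPKM in siYthdf3 (interval 131 to 136), against 120 FPKM in siNC (interval 117 to 123). Both were slightly higher in siYthdf3, with ratios of 1.09 for Sox11 (interval 1.05 to 1.14) and 1.11 for Sox4 (interval 1.08 to 1.15). Coordinates here and below come from the deposited table, and no source used here names their genome build. By the deposited gene models, Sox11 was first and Sox4 next in level among the members in both libraries, and their intervals did not overlap. Sox4, Sox11 and Sox2 each had a higher mean level than 90% of all genes that passed the minimum.

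Sox12 (ENSRNOG00000065264, chromosome 3, 140856579 to 140860975, minus strand), the third SOXC gene, differed most. It had 36.7 FPKM in siYthdf3 (interval 35.5 to 37.9), against 17.4 FPKM in siNC (interval 16.4 to 18.4). The ratio was 2.11 (interval 1.98 to 2.25), from 3647 reads in siYthdf3 and 1178 in siNC. On the log2 scale the difference was 1.06, at rank 75 from the top among all 13172 genes past the minimum, and at rank 12 among the 8344 that averaged 5 FPKM or more. The counting interval on the ratio reaches below 2, so counting error alone does not fix on which side of 2-fold the value lies. The difference of Sox12 exceeded those of its subgroup partners beyond counting error. The ratio of Sox12 divided by that of Sox4 was 1.89 (interval 1.76 to 2.04), and divided by that of Sox11 it was 1.93 (interval 1.79 to 2.08). Sox4 and Sox11 differed from each other by a factor of 1.02, with an interval of 0.970 to 1.07 that includes 1. Sox12 made up 11.3% of the summed SOXC level in siYthdf3 and 6.24% in siNC. The deposited row of Sox12 spans 4397 bases and its RefSeq model 1020, and its value under another model was not tested.

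Of the 2 rows on either side of Sox12, the one with enough reads to compare did not show its difference. Nrsn2, 9282 bases away, rested on 8 reads in siYthdf3 and 5 in siNC, too few to show one. Zcchc3, 11485 bases away on the other side, had 2.93 FPKM in siYthdf3 against 2.69 FPKM in siNC, with a ratio of 1.09 (interval 0.940 to 1.26). The neighbours were chosen by position alone. No other row of the table overlapped Sox12.

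The value of Sox11 depends on how far its gene model reaches. The Sox11 row covers 2015 bases, and its RefSeq model spans 2022. A row without a symbol (ENSRNOG00000063720, 44003036 to 44007070) begins 1270 bases downstream on the same strand, and the tables used here do not annotate it. It had 75.4 FPKM in siYthdf3 against 83.7 FPKM in siNC, with a ratio of 0.901 (interval 0.869 to 0.934), opposite in direction to Sox11. If its reads were added to those of Sox11, the ratio would be 0.989 (interval 0.964 to 1.02), from 13921 reads in siYthdf3 and 9590 in siNC. Whether that row is part of the Sox11 transcript was not tested, and this sum was made after the values were seen.

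Of the SOXB1 genes, which mark progenitors and radial glia, Sox2 was lower in siYthdf3 and no difference could be shown for Sox1 and Sox3. Sox2 (ENSRNOG00000012199, chromosome 2, 117536929 to 117539338, plus strand), which keeps progenitors in an undifferentiated state, had 71.7 FPKM in siYthdf3 (interval 69.4 to 74.0), against 80.0 FPKM in siNC (interval 77.1 to 82.9). Its ratio was 0.897 (interval 0.854 to 0.942), from 3763 reads in siYthdf3 and 2859 in siNC. Sox2 was thus lower in siYthdf3 by a small amount, at a log2 ratio of -0.16, and 26.5% of all genes had a lower one. Sox1 gave 9.53% of the summed SOXB1 level in siYthdf3 and 7.38% in siNC, and Sox3 gave less than Sox1, so Sox2 made up most of it in both libraries. Row LOC103691527 on the same strand, 399 bases downstream of Sox2, is a long noncoding RNA by symbol in the RefSeq table. It had a ratio of 1.01 (interval 0.886 to 1.16).

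Sox1 and Sox3, which share progenitor functions with Sox2, were low. Sox1 (ENSRNOG00000064976, chromosome 16, 77137584 to 77138762, minus strand) had 7.89 FPKM in siYthdf3 against 6.56 FPKM in siNC, with a ratio of 1.20 (interval 0.956 to 1.52) from 210 reads in siYthdf3 and 119 in siNC. Sox3 (ENSRNOG00000058173, chromosome X, 139309329 to 139310678, minus strand) had 3.15 FPKM in siYthdf3 against 2.36 FPKM in siNC, with a ratio of 1.34 (interval 0.937 to 1.92) from 96 reads in siYthdf3 and 49 in siNC. Both intervals include 1, so no difference could be shown for either at this depth. Against these, the ratio of Sox2 was lower, by a factor of 0.746 relative to Sox1 (interval 0.587 to 0.944) and of 0.672 relative to Sox3 (interval 0.465 to 0.961). The deposited lengths of Sox1 and Sox3 are 1179 and 1350 bases, the whole span of each row, whereas their RefSeq models span 4015 and 2080 bases. Reads outside the shorter models were not counted for them, and their levels per length depend on that.

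The SOXD genes were both higher in siYthdf3 by similar amounts. Sox5 (ENSRNOG00000027869, chromosome 4, 176785892 to 177736852, minus strand), which in the mouse cortex times the emergence of deep-layer projection neurons, had 11.1 FPKM in siYthdf3 (interval 10.4 to 11.7), against 8.92 FPKM in siNC (interval 8.25 to 9.64). Sox6 (ENSRNOG00000020514, chromosome 1, 169729194 to 170277386, minus strand), which in mouse is needed for the positioning and maturation of cortical interneurons, had 17.3 FPKM in siYthdf3 (interval 16.3 to 18.3), against 14.4 FPKM in siNC (interval 13.3 to 15.5). The ratios were 1.24 for Sox5 (interval 1.13 to 1.37) and 1.20 for Sox6 (interval 1.10 to 1.32). Neither reached 1.5-fold, which 2.41% of all genes exceeded in the higher and 3.95% in the lower direction. Sox12 was the 1 member past this size as well, and 0 members were 1.5-fold lower. Of all genes, 89.8% had a lower log2 ratio than Sox5. The 2 ratios differed by a factor of 1.03, with an interval of 0.902 to 1.18 that includes 1. One short row (LOC134486654) lies inside the Sox5 locus on the other strand and had 34 reads in siYthdf3 and 31 in siNC.

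For 5 of the 10 members RefSeq gives a sequence around the start of the gene on the GRCr8 build, which differs from the coordinates of the deposited table. Of each, the 250 bases before the start were searched. The Sox12 model begins at an ATG and spans 1020 bases, where the deposited row spans 4397. Its window is therefore counted but not printed. Shown are Sox2, the most abundant progenitor member (chr2:119464881-119465130, plus strand), and Sox6, whose window alone of the 5 holds the core of the SOX binding site (chr1:179665372-179665621, minus strand). Both run 5′ to 3′, and capitals mark matches to the searched letters on either strand.
Sox2: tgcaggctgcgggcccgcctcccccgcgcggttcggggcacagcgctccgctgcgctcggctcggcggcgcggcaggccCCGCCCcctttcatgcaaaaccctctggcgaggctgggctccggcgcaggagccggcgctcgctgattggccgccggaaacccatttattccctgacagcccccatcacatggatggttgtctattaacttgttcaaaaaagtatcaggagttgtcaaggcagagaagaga
Sox6: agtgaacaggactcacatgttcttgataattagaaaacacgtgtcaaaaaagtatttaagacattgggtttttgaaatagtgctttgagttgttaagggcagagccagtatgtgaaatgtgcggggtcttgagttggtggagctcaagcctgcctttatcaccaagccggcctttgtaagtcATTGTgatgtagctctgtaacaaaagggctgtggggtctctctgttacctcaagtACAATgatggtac
The SOX core was searched as ACAAT, or ATTGT on the other strand. Sox6 holds it in both forms, and 30.0% of 33469 RefSeq windows of the same length hold at least 1. The GC box, GGGCGG or CCGCCC, stood in 4 of the 5 windows, Sox2 with 1 match and Sox12 with 3, and in 30.5% of all windows. The TEAD site, GGAATG or CATTCC, stood in 0 of the 5 and in 12.1% of all windows. In the windows printed, no match overlapped a match of another motif. The GC content of the Sox2 window was 64.4% and that of the Sox6 window 42.8%, beside a median of 51.2% over all windows. A match or its absence describes these letters only.

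Of the SOXE genes, which drive the specification and differentiation of glia, Sox9 was lower in siYthdf3 and no difference could be shown for Sox8. Sox9 (ENSRNOG00000002607, chromosome 10, 97806485 to 97811994, plus strand), needed for the switch of progenitors to glia, had 13.8 FPKM in siYthdf3 (interval 13.1 to 14.6), against 17.2 FPKM in siNC (interval 16.2 to 18.3). The ratio was 0.802 (interval 0.739 to 0.871) and the log2 ratio -0.31, the lowest among the members, from 1261 reads in siYthdf3 and 1071 in siNC. Sox8 (ENSRNOG00000018841, chromosome 10, 14584829 to 14589818, minus strand), which acts beside Sox9 and Sox10 in the oligodendrocyte lineage, had 13.9 FPKM in siYthdf3 against 14.0 FPKM in siNC. Its ratio of 0.989 (interval 0.897 to 1.09) came from 1017 reads in siYthdf3 and 701 in siNC, and its interval includes 1. The ratio of Sox9 was 0.812 times that of Sox8 (interval 0.714 to 0.922). In siYthdf3 the intervals of Sox8 and Sox9 levels overlapped, whereas in siNC that of Sox9 lay above that of Sox8. In siNC Sox12 and Sox9 overlapped in level, and in siYthdf3 Sox12 stood above Sox9.

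**Figure D2:**
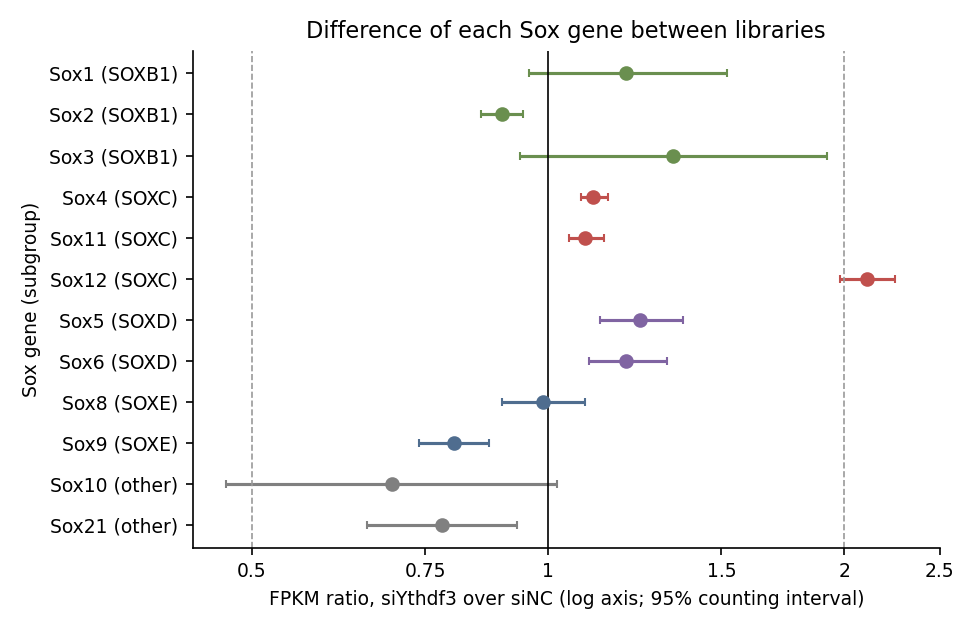
FPKM ratio of siYthdf3 over siNC (log axis) for the 10 members and the other Sox genes past the minimum, with exact 95% counting intervals and dashed lines at 2-fold. Sox12 is the highest at 2.11, and Sox2, Sox9 and Sox21 lie below 1 with their whole interval.

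Summed by subgroup, SOXC genes had 325 FPKM in siYthdf3 against 279 FPKM in siNC, which was 70.1% of the summed level of the members in siYthdf3 and 66.0% in siNC. SOXB1 genes summed to 82.8 FPKM in siYthdf3 against 88.9 FPKM in siNC, SOXD genes to 28.4 FPKM in siYthdf3 against 23.3 FPKM in siNC, and SOXE genes to 27.7 FPKM in siYthdf3 against 31.3 FPKM in siNC. The ratios of these sums were 1.17 for SOXC, 0.931 for SOXB1, 1.22 for SOXD and 0.886 for SOXE. The sums of SOXC and SOXD genes were thus higher in siYthdf3, and those of SOXB1 and SOXE genes were lower. Within SOXB1 the sum follows Sox2, while Sox1 and Sox3 had ratios above 1 with intervals that include 1. Within SOXE it follows Sox9, at a ratio of 0.802, while no direction is given for Sox8, at 0.989. In SOXC the ratio was 2.11 for Sox12, beside 1.11 for Sox4 and 1.09 for Sox11.

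**Figure D3:**
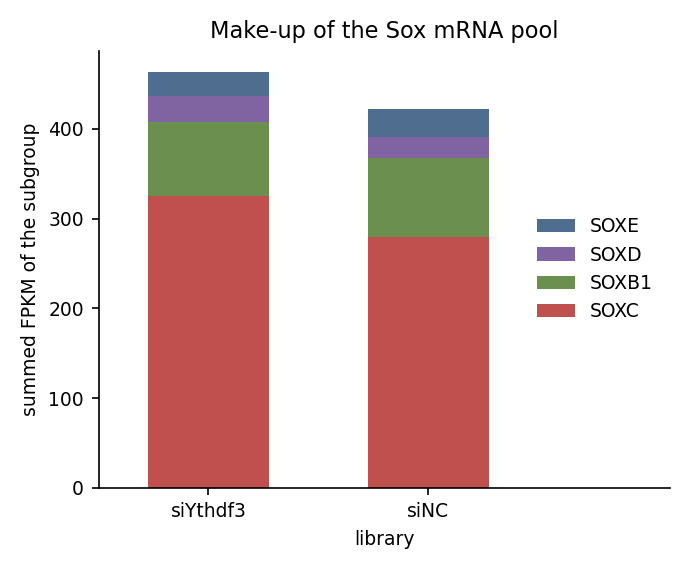
Summed FPKM of the Sox members in the siYthdf3 and siNC libraries, stacked by subgroup, with 1 library a group. SOXC genes gave 325 FPKM of 464 FPKM in siYthdf3 and 279 FPKM of 422 FPKM in siNC.

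Cell type markers differed between the same 2 libraries. Their interval counts, and those of the lists further on, stand beside the 21.3% above and 23.8% below given earlier. Those shares are of genes with 145 to 17235 reads, and some listed genes have more reads, hence narrower intervals, or fewer. Of 8 astrocyte markers, 3 had an interval above 1 and 2 below, with Gfap at 1.04, Gja1 at -0.68 and a median log2 ratio of -0.02. The 12 markers of dividing cells summed to 165 FPKM in siYthdf3 against 341 FPKM in siNC, and all 12 had an interval below 1. Of 11 radial glia markers, 4 had an interval below 1 and 1 above, and their median log2 ratio was -0.04. Vim, an intermediate filament of radial glia and other non-neuronal cells, was at 357 FPKM in siYthdf3 against 708 FPKM in siNC. Of 5 intermediate progenitor markers past the minimum, 3 had an interval below 1 and 1 above, Btg2 at a log2 ratio of 0.21. Eomes was at 0.743 FPKM in siYthdf3 against 4.34 FPKM in siNC, from 40 reads in siYthdf3 and 159 in siNC. The 6 oligodendrocyte lineage markers past the minimum had a median of -0.59, with Olig1 at 5.81 FPKM in siYthdf3 against 10.3 FPKM in siNC. Of 9 neuronal markers, 7 had an interval above 1 and 1 below. The 8 markers of excitatory neurons had a median log2 ratio of 0.22 and the 9 of inhibitory neurons one of 0.12, with 5 and 4 intervals above 1 and 0 below. Markers of microglia summed to 3.58 FPKM in siYthdf3 against 7.45 FPKM in siNC. Of the 3 past the minimum, 0 had an interval above 1 and 2 below, with Aif1 at -0.72, while P2ry12 was at 0.36 with an interval that includes 1. Markers of pericytes and fibroblasts summed to 14.0 FPKM in siYthdf3 against 15.2 FPKM in siNC. Of the 5 past the minimum, 1 had an interval above 1, Myh11 at 0.57, and 3 below, with Col3a1 at -0.80. The part of these shifts in the differences of the Sox genes was not tested.

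**Figure D4:**
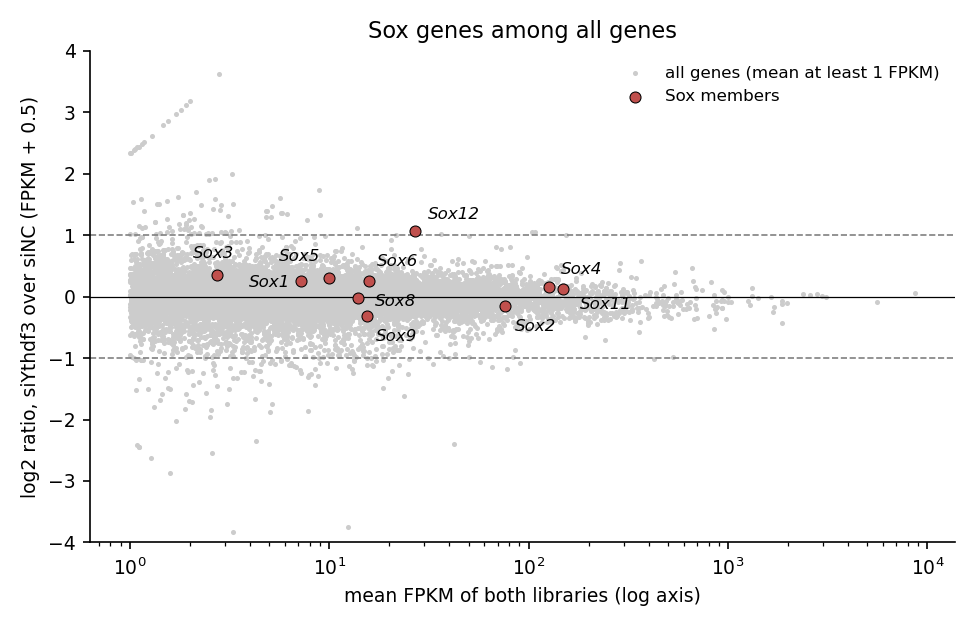
Log2 ratio of siYthdf3 over siNC (FPKM + 0.5) against the mean FPKM of both libraries (log axis) for all 13172 genes in grey and the Sox members in red, with dashed lines at 2-fold. Sox12 at 1.06 lies above the upper 2-fold line, and the other members lie between -0.31 and 0.35.

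Of the 10 other Sox genes listed, 8 had a row, and Sry and Sox14 were not analysed here. Sox21, a SOXB2 gene that opposes SOXB1 proteins in chick neural progenitors, had 3.22 FPKM in siYthdf3 against 4.13 FPKM in siNC, with a ratio of 0.780 (interval 0.654 to 0.930). Sox10, the SOXE gene that drives myelin gene expression, had 0.833 FPKM in siYthdf3 against 1.20 FPKM in siNC, with a ratio of 0.694 (interval 0.471 to 1.02) on 57 reads in siYthdf3 and 56 in siNC. Below the minimum stood 6 genes. Sox13, a SOXD gene, had 0.837 FPKM in siYthdf3 against 0.785 FPKM in siNC, and Sox15 had 0.902 FPKM in siYthdf3 against 1.03 FPKM in siNC. The endothelial genes Sox7, Sox17 and Sox18, and Sox30, known from testis, had at most 5 reads each over both libraries.

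Of 10 listed partners of SOX proteins, 2 had an interval above 1, 1 below and 7 an interval that includes 1, with a median log2 ratio of 0.02, and none were 2-fold apart. Pou3f3 and Pou3f2, POU factors that bind beside SOX proteins, had 159 FPKM in siYthdf3 against 157 FPKM in siNC, and 31.9 FPKM in siYthdf3 against 31.7 FPKM in siNC. These genes were chosen after their values were seen. Nfib, a nuclear factor I gene of late progenitors, glia and deep-layer neurons, was at 50.6 FPKM in siYthdf3 against 38.3 FPKM in siNC, with a ratio of 1.32 (interval 1.26 to 1.38). Nfia, a partner of SOX9 at the onset of gliogenesis, had a ratio of 1.10 (interval 0.975 to 1.25), and Pou3f1 had 1.27 (interval 1.07 to 1.52). Pax6, a progenitor factor that binds with SOX2, was at 21.1 FPKM in siYthdf3 against 26.0 FPKM in siNC, with a ratio of 0.810 (interval 0.746 to 0.880).

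Genes linked to SOXB1 proteins in progenitors were lower more often than higher. Of 7 listed genes, 5 had an interval below 1 and 0 above, and the median log2 ratio was -0.30, beside -0.01 over all genes. Nes, the intermediate filament nestin and a classical SOX2 target, was at 60.0 FPKM in siYthdf3 against 110 FPKM in siNC. Its log2 ratio of -0.87 was larger in size than the -0.16 of Sox2 itself. Notch1, a receptor that keeps progenitors dividing, was at -0.53, the fatty acid binding protein gene Fabp7 at -0.36 and the cytokine signalling inhibitor Socs3 at -0.30. Hes5, a Notch effector with few reads, was at 0.10 with a ratio of 1.09 (interval 0.549 to 2.24), and was picked with its value in view. This list shares Nes, Fabp7 and Hes5 with the radial glia markers.

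Genes linked to SOXC proteins in early neurons went both ways. Of 5 listed genes, 3 had an interval above 1 and 2 below, with a median log2 ratio of 0.07. The dendritic gene Map2 was at 0.39 and the microtubule gene Dcx, doublecortin, at 0.22. Neurod1, a proneural factor, was at 0.07. Tubb3, a neuronal tubulin gene picked with its value in view, stood at -0.05 with a ratio of 0.964 (interval 0.935 to 0.994). Tead2, a target of SOX4 and SOX11 in mouse embryos and a DNA-binding partner of TAZ, the product of the Wwtr1 gene in the study's title, had a ratio of 0.541 (interval 0.441 to 0.664), from 174 reads in siYthdf3 and 219 in siNC. By the deposited rows, Sox4, Sox11 and Sox12 had ratios above 1, and a link between these values and Tead2 was not tested.

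Cartilage matrix genes that SOX9 activates together with SOX5 and SOX6 in chondrocytes were present in part. Of 12 listed genes, 7 passed the minimum, and 6 of these had an interval above 1 and 0 below. Col9a1 was at 8.61 FPKM in siYthdf3 against 3.05 FPKM in siNC, and Col9a3 at 9.02 FPKM in siYthdf3 against 3.27 FPKM in siNC. Both collagen IX genes were more than 2-fold higher, at log2 ratios of 1.36 and 1.34. Col9a2, the third chain of collagen IX, was at 0.69 and Col11a1, a collagen XI chain, at 0.40. Col2a1, the classical SOX9 target in cartilage, picked with its value in view, had 1.96 FPKM in siYthdf3 against 1.77 FPKM in siNC, with an interval that includes 1. The other 5 genes, Acan, Matn1, Hapln1, Comp and Cnmd, picked with their values in view, were all under 0.3 FPKM in both libraries. In the same library Sox9 was lower, at -0.31, and Sox5 and Sox6 were higher, at 0.30 and 0.26.

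Of 6 astrocyte genes linked to SOX9 and NFIA, 1 had an interval above 1, 1 below and 4 an interval that includes 1, near the shares given above, and the median log2 ratio was -0.12. Gfap, the astrocyte intermediate filament, was at 141 FPKM in siYthdf3 against 68.2 FPKM in siNC, a log2 ratio of 1.04. The calcium-binding protein gene S100b was at -0.54, the folate enzyme gene Aldh1l1 at -0.23, and Mmd2, which the complex of SOX9 and NFIA activates in the chick and mouse spinal cord, at -0.20. Of 8 genes linked to SOX10 in oligodendrocytes, 4 passed the minimum. The myelin gene Mbp was at -0.16 and Cnp at 0.25. Mag, a gene of mature oligodendrocytes picked with its value in view, had 0 reads in siYthdf3, with an upper 95% limit of 0.0621 FPKM, and 5 reads in siNC.

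Among genes linked to the SOXD members in neurons, Pvalb differed most. Of 4 corticofugal neuron genes linked to SOX5, 1 had an interval above 1 and 0 below. Bcl11b, which directs subcerebral axon growth, was at 0.29, Fezf2, which specifies these neurons and which SOX5 represses in mouse, at -0.22, Tbr1 at 0.07 and Crym at -0.06. Of 5 interneuron genes linked to SOX6, 1 had an interval above 1. Pvalb, the calcium-binding protein parvalbumin, was at 7.86 FPKM in siYthdf3 against 2.51 FPKM in siNC, with a ratio of 3.13 (interval 2.29 to 4.35). Lhx6, which acts upstream of SOX6, was at 0.18, Npy at 0.16 and Sst at 0.15, and their intervals include 1.

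**Figure D5:**
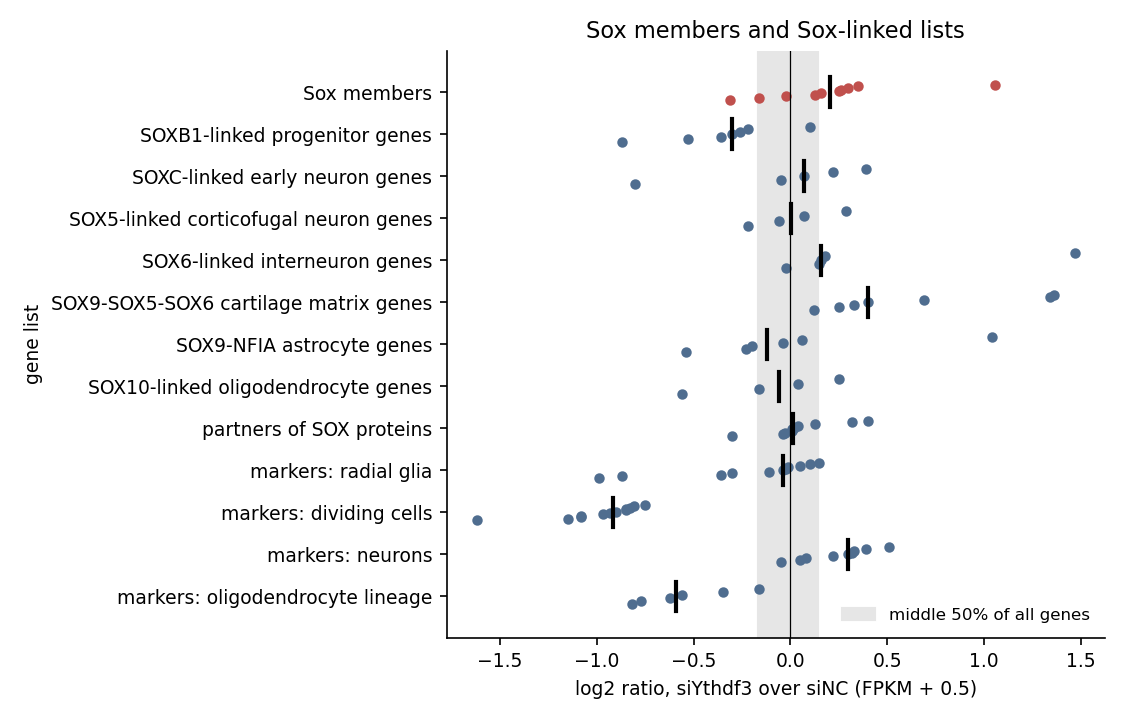
Log2 ratio of siYthdf3 over siNC (FPKM + 0.5) of each gene past the minimum in the Sox members (red) and in Sox-linked and marker lists (blue), with a black bar at each list's median and the middle 50% of all genes shaded. The list medians run between -0.92 for dividing cell markers and 0.40 for cartilage matrix genes.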

How the data were processed

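The authors deposited 1 table of FPKM values per gene and library with Ensembl identifiers, symbols, coordinates and lengths, per the file headers. Per the labels' protocols, 1 ug of total RNA entered a kit that tags cDNA molecules with identifiers of 12 random bases, read as pairs of 150 bases. Tools listed without roles in the submitters' processing notes are StringTie 2.1.4, STAR 2.7.6a, fastp 0.23.2, edgeR 3.40.2, featureCounts and Subread 1.5.1. No source used here states the genome build or whether identifiers and strand were used, so overlapping or antisense rows are uncertain. If copies of the same molecule were counted as separate reads, the counting intervals are too narrow.

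FPKM times length gave whole reads for 100% of values, within 0.05 of a read. Ratios carry 95% intervals converted from the exact (Clopper-Pearson) limits of the fraction of a gene's reads in siYthdf3, levels exact Poisson intervals, and ratios of ratios exact conditional intervals of the odds ratio for 8 pairs within subgroups, of which 5 exclude 1. Genes that averaged 1 FPKM or more entered the log2 comparison, with a pseudocount of 0.5 FPKM and a 2-fold rule in place of a test. The calculation was tested on simulated data.

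The members, the 20 gene lists and the rules were chosen with earlier results of these data known. Of 157 list entries, 152 matched a row. Named are all Sox genes, Ythdf3, and from each list up to 4 genes with the largest differences plus any 2-fold apart. Any other gene is marked in the text as picked with its value in view, and some genes that the rule takes are left out of the text and not reported here. As alternatives, pseudocounts of 0.1 and 1 FPKM, filters, rescalings, a length correction, a 1.5-fold rule and summed rows were tried. Python 3.11.15, numpy 2.4.6, pandas 2.3.3, scipy 1.17.1 and matplotlib 3.10.9 were used.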

Additional observations from a re-analysis of the deposited data

How the results depend on the processing

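Under each of 10 other settings, the count of Sox members past the fold rule was 1 higher and 0 lower in siYthdf3. Sox12 stayed between 1.03 and 1.12. None of these settings changed a gene model, and the Sox12 row spans 4397 bases where its RefSeq model spans 1020. Summing rows, changing the fold rule, and dropping or raising the filter could not change the log2 ratio of any member kept. No member had a further row, and all 10 had passed the minimum. The median log2 ratio of the members ran between 0.16 with a mean of at least 5 FPKM, which leaves Sox3 out, and 0.26 after rescaling to TPM. Sox8 changed sign, to 0.03 under TPM and 0.01 with the length trend removed, so no direction is given for it. Sox4 moved to 0.21 under TPM and Sox11 to 0.19 with the length trend removed. In an alternative added after seeing the data, the adjacent downstream row turned Sox11 to -0.02. For Sox2 the same step gave -0.13, but the added row is the long noncoding RNA LOC103691527. It brought 557 reads in siYthdf3 and 375 in siNC, beside 3763 and 2859 of Sox2, so the value could move little. No paired analysis was possible because each group had 1 library, and no library could be left out. Depth limits Sox1, Sox3 and Sox10, whose intervals include 1.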

Other observations

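Mog, a gene of the outer myelin surface that stands in the SOX10-linked list, had 39.0 FPKM in siYthdf3 against 37.8 FPKM in siNC, with a ratio of 1.03 (interval 0.952 to 1.12). The myelin genes Mbp and Mag were far lower in the same libraries. Mbp was at 1.01 FPKM in siYthdf3 against 1.18 FPKM in siNC, and Mag had 0 reads in siYthdf3 and 5 in siNC. Sox10 was at 0.833 FPKM in siYthdf3 against 1.20 FPKM in siNC.

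These genes and the rows below were picked with their values in view. The row nearest to Sox1, LOC102553495 on the same strand and 31600 bases away, had 4.37 FPKM in siYthdf3 against 3.31 FPKM in siNC, with a ratio of 1.32 (interval 0.855 to 2.08). The row nearest to Sox3, Magec2l1, lies 221030 bases away on the other strand. Magec2l1 had 2.46 FPKM in siYthdf3 against 1.61 FPKM in siNC, with a ratio of 1.53 (interval 1.20 to 1.95).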
